A study of Capra hircus with 6 samples.

Results

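RNA-seq was used to examine 8 genes that set how a cell senses, takes up and exports cholesterol, in goat (Capra hircus) dermal papilla cells (DPCs) that were cultured from secondary hair follicles. They were SREBF1, SREBF2, SCAP, INSIG1, INSIG2, ABCA1, ABCG1 and MYLIP. With earlier results of these data known, genes were selected by name, as the identifier or symbol in the deposited counts. They occupied 9 of the 15944 rows, because SREBF1 stands there under 2 identifiers, and 8 of the 9 rows had enough reads to be tested. DPCs are the mesenchymal cells at the base of the follicle that direct hair growth. The primary wild type cultures came from scapular skin of 3-year-old Albas cashmere goats and were used at passages 4 to 7. The control group (3 libraries) received medium alone. The ATRA-treated group (3 libraries) received all-trans retinoic acid (ATRA), the vitamin A metabolite that activates the retinoic acid receptors, at 100 µM for 24 h. The study describes cells from 3 individual animals, but the labels do not tie a library to an animal, and every library carries the same batch label. The p-values therefore measure the spread between these libraries.

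Sterol regulatory element-binding proteins (SREBPs) are transcription factors made as membrane proteins of the endoplasmic reticulum. SCAP escorts them to the Golgi apparatus, where site-1 and site-2 proteases release the active part, and the INSIG proteins hold SCAP back when sterols are plentiful. SREBP-2, from SREBF2, drives cholesterol synthesis and uptake, and SREBP-1, from SREBF1, drives fatty acid synthesis. The liver X receptors (LXRs) respond to oxysterols, which are made from cholesterol. LXRs are known to raise the exporters ABCA1 and ABCG1 and the ubiquitin ligase MYLIP, which marks lipoprotein receptors for destruction.

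Control libraries held 36887160 to 38012771 counts and ATRA libraries 35532339 to 36870939. Levels are given as normalized CPM, the counts of a gene relative to the library size after TMM scaling in edgeR. The TMM factors averaged 0.847 without ATRA and 1.18 with it. Dividing by library size alone would move the median log2 fold change (log2FC, ATRA over control) of all 12588 tested genes from 0.04 to 0.52, so small changes below depend on the scaling. In bulk samples, fewer cells of a type and less RNA per cell cannot be told apart. All 12 dermal papilla markers listed for the check had a row, and their summed level, most of it ACTA2, was 8592 to 9531 CPM in the control libraries and 151 to 164 CPM with ATRA. Of them, 6 were tested and all of these fell, while ALPL, CORIN and PROM1 (CD133) had at most 1 read and SOX2, NOG and CRABP1 at most 16 reads in any library. The summed level of 9 mesenchymal markers was 85641 to 86789 CPM without and 4787 to 5113 CPM with ATRA. The part of this fall in the results below was not tested.

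ATRA treatment moved the 8 genes in different directions. With TMM scaling, ABCA1 rose 7.14-fold, SREBF2 fell 3.00-fold and INSIG1 fell 2.84-fold, while the changes of SREBF1, SCAP, INSIG2 and MYLIP were all smaller than 1.5-fold and ABCG1 was almost unread. At an adjusted p under 0.05 (edgeR's quasi-likelihood test, Benjamini-Hochberg over all tested genes), 2 rows were higher, 4 were lower and 2 did not pass. Of all tested genes, 79.7% passed this threshold, 40.9% higher and 38.7% lower, so 6 of 8 is near the background. With the study's thresholds, an absolute log2FC above 1 and an unadjusted p under 0.05, 3 of the 8 rows passed, 1 higher and 2 lower, and 31.0% of all tested genes did, 13.7% higher and 17.3% lower. The control and ATRA libraries did not overlap for 7 of the 8 rows, 3 with ATRA above and 4 with ATRA below, against 80.1% of all tested genes, 41.2% above and 39.0% below. The median log2FC of the 8 rows was -0.08, against 0.04 for all tested genes, and it was 0.40 with library size only.

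**Figure D1:**
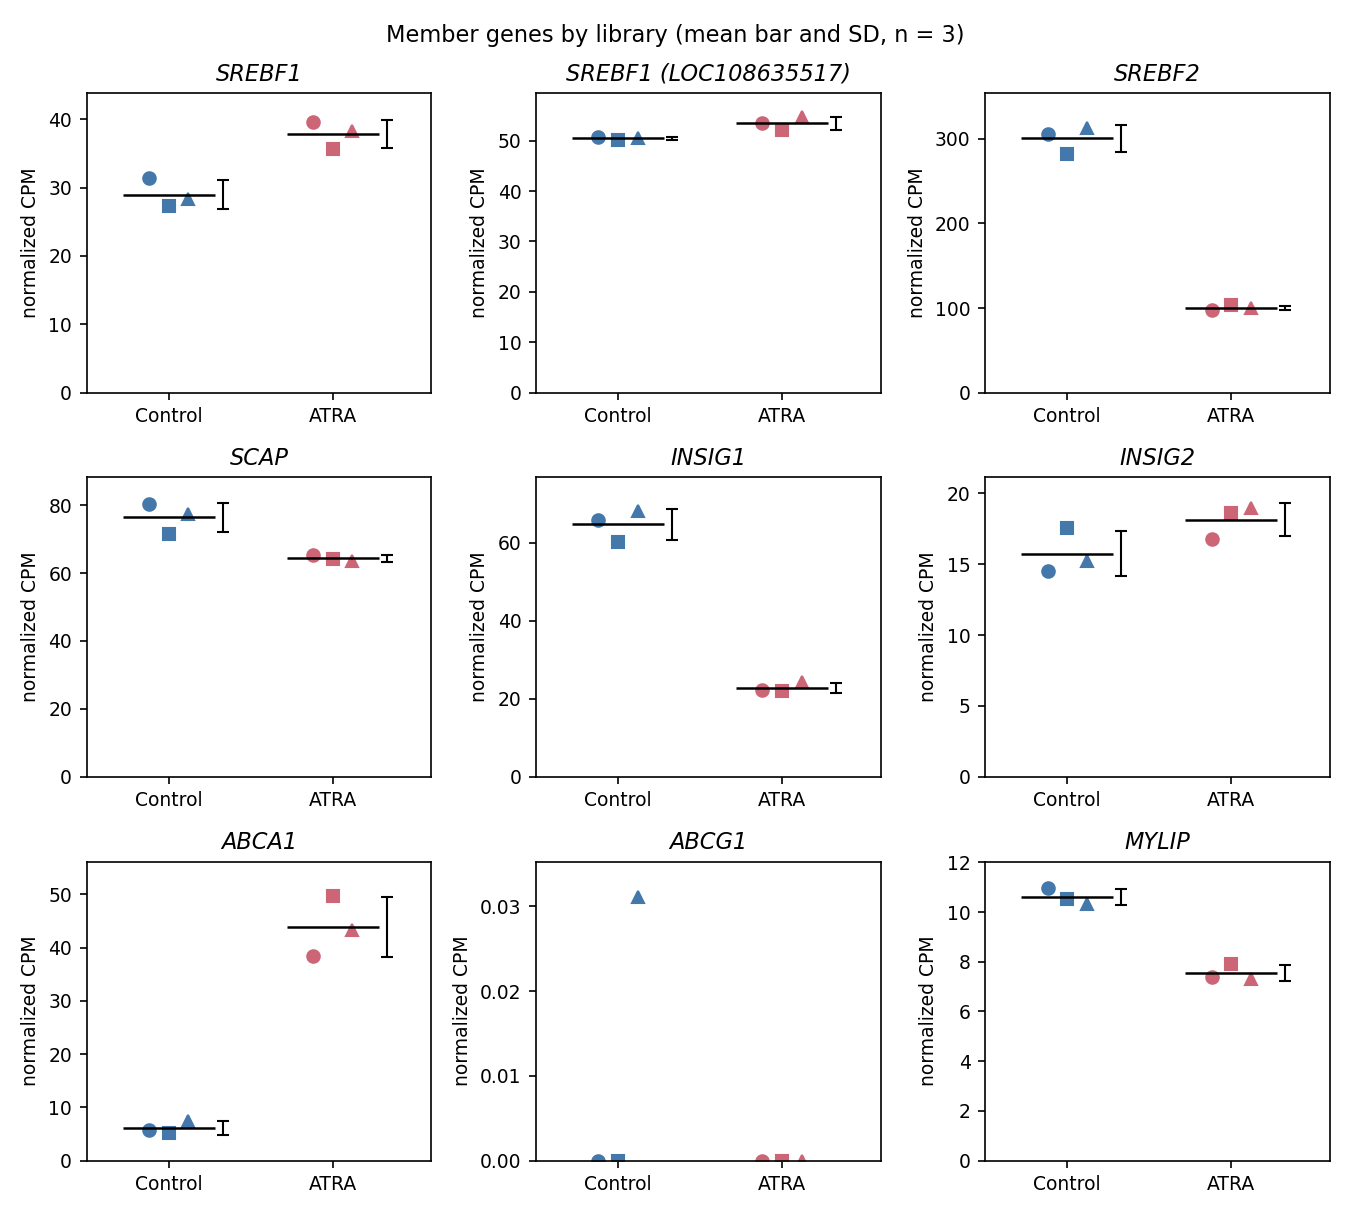
Normalized CPM (vertical axis, starting at 0 in each panel) of the 9 rows in each of the 3 control and 3 ATRA libraries, with circles, squares and triangles for replicates 1, 2 and 3, a bar for the mean and an error bar for the SD (none for ABCG1, which had 1 read in all). SREBF2 and INSIG1 lie lower and ABCA1 lies higher in all 3 ATRA libraries, with wide gaps, and the other rows lie close together.

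Among the transcription factors, SREBF2 had 306, 282 and 313 CPM in the control libraries and 97.7, 103 and 99.6 CPM in the ATRA libraries. Every ATRA library lay far below every control library, and the spread within each group was small. Mean levels were 300.4 ± 15.9 CPM without and 100.1 ± 2.74 CPM with ATRA (SD, n = 3 each), and SREBF2 had a log2FC of -1.58 (standard error 0.0580, 95% interval -1.71 to -1.46, adjusted p = 1.24e-14 by edgeR's quasi-likelihood test). Under every other scaling SREBF2 also fell, by 1.61 on the log2 scale with RLE factors and by 1.11 with library size only. In order of log2FC among all tested genes, SREBF2 stood at 1367 from the lowest.

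SREBF1 moved the other way and by much less. The row named SREBF1 had 31.4, 27.3 and 28.3 CPM in the control libraries and 39.6, 35.6 and 38.3 CPM with ATRA. The groups did not overlap, but the highest control library and the lowest ATRA library were close. The mean rose from 29.0 ± 2.18 to 37.8 ± 2.05 CPM (SD, n = 3 each), with a log2FC of 0.38 (standard error 0.0772, adjusted p = 0.000185, edgeR). The other row with this symbol, LOC108635517, is described as SREBP-1-like and lies on an unplaced sequence of the RefSeq reference table. Its libraries had 50.7, 50.0 and 50.5 CPM without ATRA and 53.5, 52.2 and 54.7 CPM with it. That row did not pass the test (log2FC 0.08, 95% interval -0.05 to 0.22, adjusted p = 0.220, edgeR), and it passed with upper-quartile scaling and with library size only. The sequences of the 2 rows were not compared. Any reads they share could be divided between them, so each row is uncertain by itself. The summed rows, an alternative chosen after seeing the data, had 79.4 ± 2.51 CPM in the control group and 91.3 ± 3.03 CPM with ATRA (SD, n = 3 each, log2FC 0.20, standard error 0.0590, adjusted p = 0.00460, edgeR).

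The balance between the SREBP genes was also taken within each library, where no scaling enters. The log2 ratio of SREBF1 to SREBF2 counts was -3.28, -3.37 and -3.47 in the control libraries and -1.30, -1.53 and -1.38 in the ATRA libraries. No ATRA library reached down to a control library. The ratio was 3.91 times higher with ATRA (p = 0.1 in a two-sided exact permutation test, which cannot go lower with 3 against 3, and 0.1 when adjusted over the 5 ratios compared, of which 4 are given here). With both SREBF1 rows in the ratio, the difference was 1.78 on the log2 scale, against 1.97 with the named row alone. The RefSeq table (assembly ARS1.2) places MIR33B inside the span of SREBF1 and MIR33A inside that of SREBF2. Reads from overlapping genes cannot be told apart here, because the strand setting of the counting is not given in the sources used here.

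SCAP, the escort that carries SREBPs out of the endoplasmic reticulum, had 80.3, 71.6 and 77.3 CPM in the control libraries and 65.4, 64.0 and 63.6 CPM with ATRA. The groups did not overlap. The log2FC was -0.25 (standard error 0.0626, adjusted p = 0.00147, edgeR), but with library size only it was 0.23 (adjusted p = 0.00250, edgeR), so the direction of SCAP turned with the scaling. It was -0.27 with RLE factors and -0.17 with upper-quartile factors. SREBF2 fell relative to SCAP in every ATRA library, since the log2 ratio of SREBF2 to SCAP was 1.98 ± 0.0426 in the control group and 0.64 ± 0.0541 with ATRA (SD, n = 3 each, exact permutation test, p = 0.1).

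The INSIG genes encode the proteins that retain SCAP, and INSIG1 is itself a classical SREBP target. INSIG1 had 65.9, 60.3 and 68.1 CPM in the control libraries and 22.3, 21.9 and 24.2 CPM in the ATRA libraries. Every ATRA library lay below every control library. The log2FC was -1.50 (standard error 0.0736, 95% interval -1.66 to -1.35, adjusted p = 1.03e-12, edgeR), and -1.03 with library size only. INSIG2, its less SREBP-dependent relative, had 14.5, 17.5 and 15.2 CPM without ATRA and 16.8, 18.6 and 19.0 CPM with it. The groups overlapped, because the second control library lay above the first ATRA library. INSIG2 did not pass the test (log2FC 0.20, 95% interval 0.01 to 0.40, unadjusted p = 0.0446, adjusted p = 0.0556, edgeR). Without Control replicate 2 its log2FC was 0.28 (adjusted p = 0.0184, edgeR), and without ATRA replicate 1 it was 0.25 (adjusted p = 0.0391, edgeR). With all libraries kept, INSIG2 also passed with upper-quartile scaling (log2FC 0.28, adjusted p = 0.0115, edgeR). Its call thus lay near the threshold and changed with the setting.

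Within libraries, the log2 ratio of INSIG1 to INSIG2 was 2.18, 1.78 and 2.16 without ATRA and 0.41, 0.23 and 0.35 with it. INSIG1 thus had about 4.11 times the reads of INSIG2 without ATRA and 1.26 times with it, a difference in read number and not in molecules, since transcript lengths were not used here. The ratio was 3.27 times lower with ATRA (exact permutation test, p = 0.1). The log2 ratio of INSIG1 to SCAP went from -0.24 ± 0.0517 to -1.50 ± 0.0899 (SD, n = 3 each, exact permutation test, p = 0.1).

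**Figure D2:**
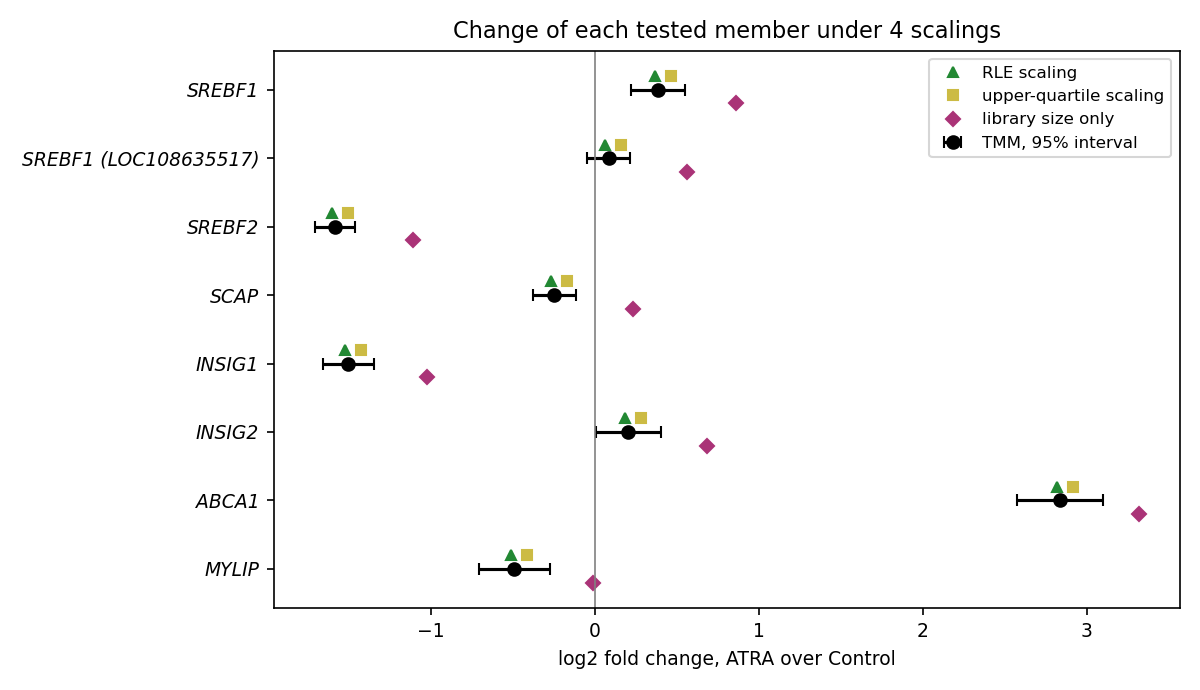
Log2 fold change of ATRA over control (horizontal axis) for the 8 tested rows, with black points and 95% intervals for TMM scaling and coloured symbols for RLE, upper-quartile and library-size scaling. SREBF2 and INSIG1 stay below 0 and ABCA1, SREBF1 and INSIG2 stay above 0 under all 4 scalings, while SCAP turns from -0.25 to 0.23 and MYLIP reaches -0.0123 with library size only.

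ABCA1 encodes the transporter that moves cholesterol and phospholipid onto lipid-poor apolipoprotein A-I. It had 5.73, 5.16 and 7.53 CPM in the control libraries, from 178, 167 and 242 reads. The ATRA libraries had 38.5, 49.7 and 43.4 CPM, from 1664, 2194 and 1795 reads. The lowest ATRA library stood several times above the highest control library. The mean rose from 6.14 ± 1.24 to 43.9 ± 5.64 CPM (SD, n = 3 each), with a log2FC of 2.84 (standard error 0.124, adjusted p = 3.53e-13, edgeR) and a fold of 7.14 (95% interval 5.95 to 8.55). It was 3.31 on the log2 scale with library size only and 2.66 with the t.test function on log2(CPM + 1). ABCA1 held place 389 from the highest among the 12588 log2FC. Macrophages are rich in ABCA1, and 6 of 7 markers listed for leukocytes and macrophages had a row. Their summed level was 5.90 to 8.81 CPM without and 31.2 to 32.9 CPM with ATRA, most of it CD14, while the defining markers CSF1R, CD163 and AIF1 had 7 reads or fewer in every library. The part of these markers in the ABCA1 result was not tested.

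ABCG1, which passes cholesterol on to mature HDL particles, had 1 read in a single control library (Control replicate 3) and 0 in the other five. In the ATRA-treated group, 0 reads allow a level of up to 0.0233 CPM (3 reads over the group, counting error only), so ABCG1 was not detected at this depth while ABCA1 was. No test or fold is given for it.

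MYLIP (also called IDOL) had 10.95, 10.5 and 10.3 CPM in the control libraries and 7.38, 7.91 and 7.32 CPM with ATRA. The groups did not overlap. Its log2FC was -0.49 (standard error 0.104, adjusted p = 0.000295, edgeR), but with library size only it was -0.0123 (adjusted p = 0.913, edgeR), so its fall depended on the scaling. Its raw reads were nearly level, 340, 341 and 331 without ATRA and 319, 349 and 303 with it.

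**Figure D3:**
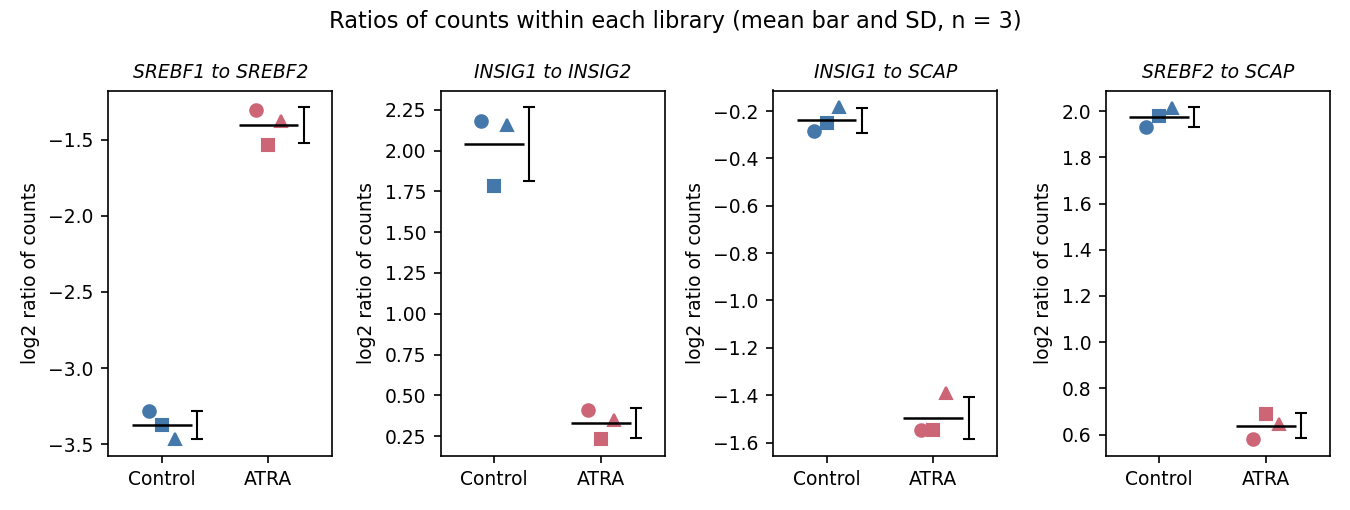
Log2 ratio of the raw counts of 2 genes within each library (vertical axis, different range in each panel) for 4 pairs, with circles, squares and triangles for replicates 1, 2 and 3, a bar for the mean and an error bar for the SD (n = 3). In each panel the 3 ATRA libraries lie apart from the 3 control libraries, and the ratio is higher with ATRA for SREBF1 to SREBF2 and lower for the other pairs.

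Around the members, 96 further genes were listed by role, of which 94 had a row and 88 were tested. Genes without a row were not analysed here. In the list of SREBP processing and turnover, 10 of 14 tested genes rose, 1 fell and 3 did not pass (median log2FC 0.38), against 40.9% of all tested genes higher and 38.7% lower. TRIM8, a ubiquitin ligase, had a log2FC of 1.26, RNF145, a ubiquitin ligase known to act on SCAP, had 0.88, ATF6, a stress sensor cut by the same proteases, had 0.76 and SPRING1, a cofactor of site-1 protease, had 0.53. The proteases themselves parted, as MBTPS1 (site-1 protease) had a log2FC of -0.40, which turned to 0.08 with library size only, and MBTPS2 (site-2 protease) rose with 0.24. The genes that did not pass were RNF139, ERLIN1 and ERLIN2. With library size only, 13 genes of this list were higher and 0 lower, so the calls of its smaller changes depend on the 0.48 (log2) between the scalings.

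Genes of lipoprotein uptake moved both ways. Of 10 tested genes, 4 rose, 5 fell and UBE2D1 did not pass, and with library size only 5 rose and 2 fell. With TMM scaling, 40.9% of all tested genes were higher and 38.7% lower. VLDLR rose from 64.6 ± 1.36 to 100.3 ± 1.73 CPM (SD, n = 3 each, log2FC 0.64) and LRP8 had a log2FC of 1.22. The proteins of both receptors are known targets of MYLIP, whereas the values here are RNA levels. SCARB1, the HDL receptor, fell with a log2FC of -0.86, LRPAP1 with -0.57 and LRP1 with -0.52 (with library size only, -0.09 for LRPAP1 and -0.04 for LRP1, which then did not pass). SNX17 had -0.40, which turned to 0.08 with library size only, and the scavenger receptor CD36 rose from at most 2 reads to 16, 38 and 34 reads. SNX17 and CD36 fall outside the rule for named genes and were named after their values were seen, as were UBE2D1 and, in other lists, all genes given as not passing, SOAT2, NCOA1 and CYP46A1.

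Beyond the receptors, genes for the release and transfer of cholesterol moved both ways, with 6 of 9 tested genes higher and 3 lower. Of all tested genes, 40.9% were higher and 38.7% lower. LIPA, the lysosomal acid lipase that frees cholesterol from its esters, fell from 408 ± 12.8 to 69.0 ± 4.62 CPM (SD, n = 3 each, log2FC -2.56). NPC1, which exports the freed cholesterol from the lysosome, rose from 48.6 ± 4.05 to 140.7 ± 8.73 CPM (SD, n = 3 each, log2FC 1.53), and its partner NPC2 rose with a log2FC of 0.69. GRAMD1A, a carrier of cholesterol from the plasma membrane to the endoplasmic reticulum, rose with 1.87, STARD3 with 1.35 and OSBP with 0.76. TMEM97 and STARD4, known as SREBP targets, fell with -1.31 and -0.91. For each of these genes the groups lay apart and the adjusted p passed the threshold, as for 80.1% and 79.7% of all tested genes.

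**Figure D4:**
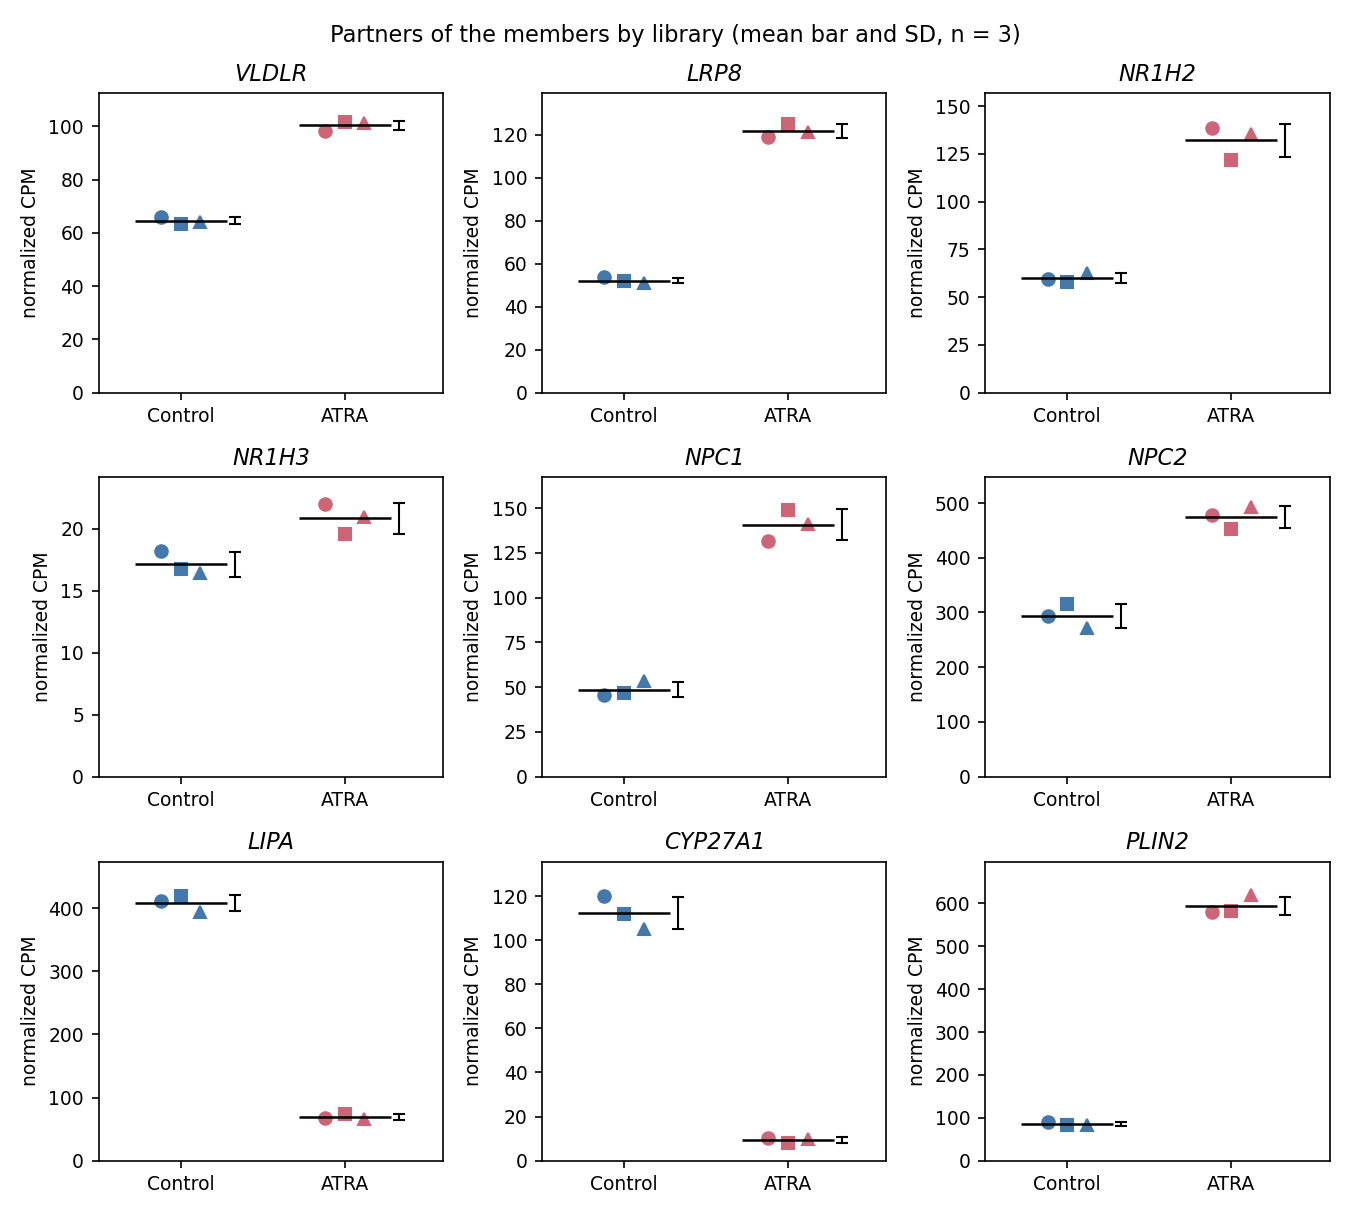
Normalized CPM (vertical axis, starting at 0 in each panel) of 9 genes that work with the members in each of the 3 control and 3 ATRA libraries, with symbols for replicates, a bar for the mean and an error bar for the SD. LIPA and CYP27A1 lie lower and VLDLR, LRP8, NR1H2, NR1H3, NPC1, NPC2 and PLIN2 lie higher in all 3 ATRA libraries.

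The receptors that control ABCA1 and MYLIP were then examined. NR1H2 (LXR beta) rose from 60.0 ± 2.41 to 132 ± 8.84 CPM (SD, n = 3 each, log2FC 1.14, adjusted p = 9.47e-12, edgeR), and NR1H3 (LXR alpha) had a log2FC of 0.28 (adjusted p = 0.00539, edgeR). Among their partners, RXRB had a log2FC of 0.76 and RXRA had -0.25, which turned to 0.23 with library size only. The corepressor gene NCOR1 had 0.74. The coactivator gene NCOA1 had 0.26. Genes known to respond to LXR moved both ways. LPCAT3 had a log2FC of -2.73 and PLTP -2.93, and APOA1, which encodes the acceptor of ABCA1, had -4.00 at a low level (90, 147 and 113 reads without ATRA and 4, 7 and 18 with it). APOE, also known to respond to LXR, rose with a log2FC of 0.31 (adjusted p = 0.00196, edgeR), although its groups overlapped. In the whole list, 6 of 13 tested genes rose, 6 fell and ABCA7 did not pass, with a median log2FC of -0.25. This is near the 40.9% higher and 38.7% lower of all tested genes. The list pools receptors and their cofactors with responding genes, and APOE was the only responding gene in it that rose. With the study's thresholds, 1 gene of the list was higher (NR1H2) and 5 were lower, against 13.7% and 17.3% of all tested genes.

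Enzymes that make or clear oxysterols, the natural LXR ligands, fell in 4 of 5 cases, and in 3 with library size only. Of all tested genes, 38.7% were lower. CYP46A1 rose from at most 1 read to 44, 16 and 46 reads. CYP27A1, a mitochondrial sterol hydroxylase, had 120.0, 112 and 105 CPM in the control libraries and 10.2, 7.87 and 9.96 CPM with ATRA (log2FC -3.59, standard error 0.0918, adjusted p = 5.76e-17, edgeR). CYP7B1 had a log2FC of -1.49 and CH25H, a cholesterol hydroxylase, had -0.996. CYP39A1 had -0.45, which became 0.03 with library size only. In storage, PLIN2, a coat protein of lipid droplets, rose from 85.4 ± 4.33 to 594 ± 21.5 CPM (SD, n = 3 each, log2FC 2.80), SOAT1, which esterifies cholesterol, had a log2FC of 0.38 and LIPE had -2.07. SOAT2 rose from at most 2 reads to 36, 34 and 39 reads, and NCEH1 did not pass.

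Sterol synthesis genes, the known targets of SREBP-2, were mostly lower, and SREBF2 was lower too. Of 20 genes, 19 fell, 0 rose and TM7SF2 did not pass, with a median log2FC of -2.45, against 38.7% of all tested genes lower. EBP had a log2FC of -4.22, LSS -3.59 and FDPS -3.45. Of 12 tested fatty acid genes, known as targets of SREBP-1, 8 fell, 3 rose and GPAM did not pass (median log2FC -1.09). Of all tested genes, 38.7% were lower and 40.9% higher. The SREBF1 row moved the other way from most of these genes, with a log2FC of 0.38. The part of either SREBF gene in these changes was not tested. SCD had a log2FC of -2.80, ELOVL6 -2.12, FADS2 -1.90 and FASN -1.79, while ACSS2 had 0.78, ME1 0.60 and ACACA 0.27.

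**Figure D5:**
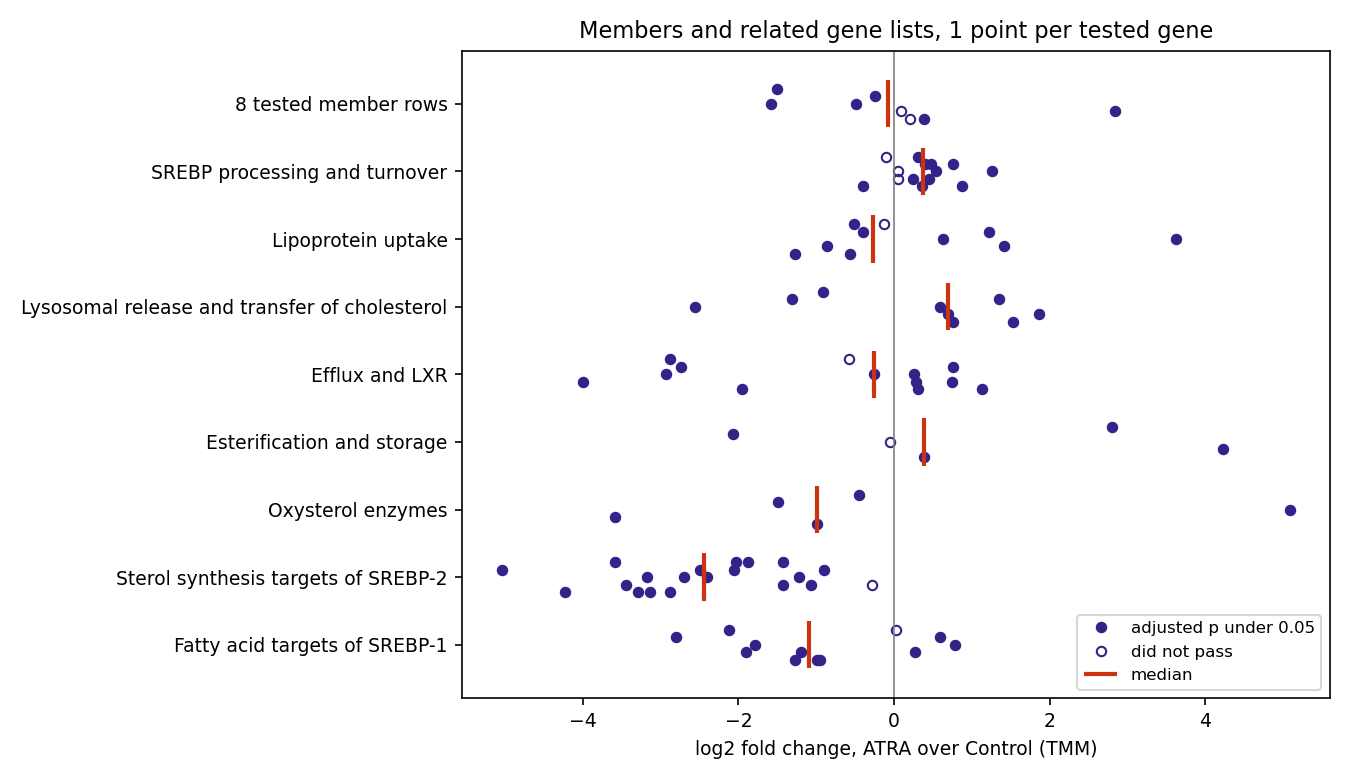
Log2 fold change of ATRA over control with TMM scaling (horizontal axis) for each tested gene of the 8 member rows and the 8 related lists, with filled points for an adjusted p under 0.05, open points for genes that did not pass and a red line at the median. The median lies at -2.45 for sterol synthesis and -1.09 for fatty acid targets, and higher for the members and the other lists, with 8 of the 88 list genes changing sign with library size only.

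The genes whose levels over the 6 libraries ran closest to each member were found by the Euclidean distance between centred log2(CPM + 1) values, among 8597 or 8598 genes with a mean of at least 10 CPM. For SREBF2 they were ARHGEF17 (distance 0.0369) and MYO1D (0.0422), and for INSIG1 they were MTHFD1L (0.113) and KANK2 (0.114). TENM4 (0.290) and UNC5B (0.304) were nearest to ABCA1. SREBF1 was closest to INO80B (0.0503) and TRIM27 (0.0511), and MYLIP to TCFL5 (0.0452) and SLC35F6 (0.0615). With 2 groups so far apart, this likeness rests mainly on the size of the group difference.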

How the data were processed

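Libraries were made from poly(A) RNA, and the authors trimmed the reads and deposited raw counts per gene. The submitters' processing notes name HISAT2, featureCounts and DESeq2, with no role or version. The genome build, annotation and strand setting are not given in the sources used here, so no coordinates are printed, and the RefSeq table (ARS1.2) served only for names, placement and overlapping genes. All 6 per-sample columns were used. Genes kept by edgeR's expression filter (12588) were normalized with TMM factors, and the robust quasi-likelihood test of edgeR was applied to the 6 libraries without covariates, with Benjamini-Hochberg adjustment, a prior count of 0.125, and a standard error of the absolute log2FC over the square root of F. For counts a count model was preferred to the t.test function of R that the study used, and that function served as an alternative. Ratios used counts plus 0.5 and exact permutation tests.

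Members, lists and named genes were chosen with earlier results of these data known. Named were all members, a set of fixed pathway genes, and in each list and direction up to 4 genes with the largest absolute log2FC at an adjusted p under 0.05, a mean CPM of at least 1 and no overlap between the groups. Some genes this rule names, and 1 ratio, are not reported here. SPRING1 was matched to C17H12orf49 after the table was seen. Of the marker lists, 7 keratinocyte genes summed to 3.11 to 4.98 CPM without and 5.37 to 5.97 CPM with ATRA. The 5 endothelial genes summed to 0.903 to 1.24 CPM without and 6.19 to 9.16 CPM with ATRA. Of these, 3 were tested and 2 were higher, with a median log2FC of 0.87 and the highest at 10.8. The 2 melanocyte genes had 16.1 to 17.6 CPM without and 32.2 to 39.0 CPM with it, and 1 was higher and 1 lower (log2FC 1.33 and -0.90). The 4 adipocyte genes had 17.1 to 20.6 CPM without and 3.41 to 4.03 CPM with it. Their sum hides opposite changes, since 2 of the 3 tested genes were higher and 1 lower (log2FC from -4.74 to 1.20, median 1.04). Of all tested genes, 40.9% were higher and 38.7% lower. The 2 hepatic genes summed to at most 0.0680 CPM in any library. The part of these shifts in the results was not tested. Replicates were checked not to be copies (chi-square per degree of freedom 5.12 to 19.0). Intervals cover these libraries only. The alternatives were DESeq2, the t.test function, other scalings and filters, a replicate block, the study's thresholds, each library left out, and summed SREBF1 rows. The tests were tested on simulated data. The software was edgeR 4.0.16 and DESeq2 1.42.0 in R 4.3.3, with figures drawn by matplotlib 3.10.9 in Python 3.11.15.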

Additional observations from a re-analysis of the deposited data

How the results depend on the processing

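ABCA1, SREBF2 and INSIG1 kept their direction and their call under every alternative run, as did SREBF1 except with the study's thresholds, which its log2FC of 0.38 does not reach, and the ratio of SREBF1 to SREBF2 was 1.78 on the log2 scale with both SREBF1 rows summed. With library size only, SCAP turned to 0.23 and the median of the members to 0.40, MYLIP was no longer past the threshold at -0.0123, LOC108635517 (0.56) and INSIG2 (0.68) passed it, 5 members were higher and 2 lower, and over all genes 7921 were higher and 2861 lower, against 5151 and 4877. With upper-quartile scaling, LOC108635517 (0.16) and INSIG2 (0.28) also passed, and 4 members were higher. These scalings shift all genes alike by construction. INSIG2 passed too with a CPM of at least 1 in 3 libraries (0.22) and with the replicate block (0.21, adjusted p 0.0475, edgeR), and the cause was not tested. With the study's thresholds, 1 member was higher and 2 lower, 11 genes of the related lists were higher and 35 lower, against 33 and 47, and over all genes 1730 were higher and 2174 lower. Of 240 counts by list and direction over the alternatives, 7 moved by over 1.5 times with the study's thresholds and 5 with others.

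Leaving out each library in turn gave a log2FC from 0.14 to 0.28 for INSIG2, which passed the threshold without Control replicate 2 and without ATRA replicate 1. The number of members higher lay between 2 and 3, and no other member changed its call. Deviations of same-numbered libraries correlated at 0.330, -0.0322 and -0.265 over 9030 genes, so the numbers were not taken to pair the libraries. Between different numbers, Control replicate 3 with ATRA replicate 2 had 0.395, Control replicate 2 with ATRA replicate 3 had 0.0724 and Control replicate 1 with ATRA replicate 2 had -0.357. Whether the libraries are paired in another order was not tested. The block called 9992 genes, against 10028 without it. At this depth ABCG1 was not detected with ATRA, and a level up to 0.0233 CPM was not resolved.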

Other observations

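In the ABCA family of transporters, picked by description after the values were seen, 12 rows were tested, of which 4 passed the study's thresholds upward and 3 downward, against 13.7% and 17.3% of all tested genes. ABCA1 had the highest log2FC of the 12, at 2.84. ABCA3, which loads phospholipid into lamellar bodies, rose from 13.9 ± 2.65 to 30.9 ± 1.02 CPM (SD, n = 3 each, log2FC 1.15). ABCA6 and ABCA10 fell with log2FC of -3.52 and -2.55, from 242, 298 and 278 reads to 30, 41 and 25 for ABCA6.

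OLR1, a scavenger receptor for oxidised LDL that is outside the lists and was singled out after its values were seen, had 8, 23 and 14 reads in the control libraries and 782, 909 and 707 reads with ATRA. Its mean rose from 0.468 ± 0.228 to 18.6 ± 1.82 CPM (SD, n = 3 each), a log2FC of 5.29 (standard error 0.193, adjusted p = 1.15e-14, edgeR's quasi-likelihood test).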
